A study of Mus musculus with 6 samples.

Results

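The Notch pathway genes described here are 31 ligands, receptors, nuclear factors, Hes and Hey repressors and regulators of Notch signalling. They were picked out by gene symbol from a list of the pathway's parts, drawn up with earlier results of these data known, and all 31 were found among the 23279 genes measured. Expression was profiled on 6 arrays in mouse primary myoblasts, the precursors of skeletal muscle fibres, prepared from muscles of the limbs of C57bl6N mice. Their genotype is given as Pax7-CreERT2*Beta-cetenin-Exon3-loxP/+, in the labels' spelling. Cells were expanded for 5 passages (20% FBS, 2 ng/ml of the growth factor bFGF) before 24 hours of differentiation in 2% HS. The 3 control cultures received ethanol during differentiation, and the 3 activated cultures received 4-OH tamoxifen in ethanol, which switches on the Cre recombinase and leads to an active form of beta-catenin, the effector of canonical Wnt signalling. All 6 cultures carried the Cre and the floxed allele, and the control cultures received no tamoxifen, so the groups differ in exposure to the drug as well as in recombination. Because Pax7 drives the Cre, recombination can occur only in cells in which that promoter is active. The age of the mice and the share of recombined cells were not given in the sources used here. RNA came from independent cultures. Whether each culture had its own donor animal is not stated, and p-values therefore reflect only how far these cultures differ.

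Notch is a receptor that is cut after it binds a ligand of the Delta or Jagged family on a neighbouring cell. The released intracellular part enters the nucleus, joins the DNA-binding protein Rbpj and a Mastermind co-activator, and switches on repressors of the Hes and Hey families. In skeletal muscle, Notch signalling is known for keeping satellite cells quiescent and myoblasts undifferentiated, and its decline accompanies differentiation.

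The arrays had median log2 values from 4.04 to 4.36, and the SD of values within an array ranged from 1.72 to 2.12. Of 10 markers of myoblasts and myocytes, 9 lay above the array median on all 6 arrays. Of 12 endothelial markers 9 lay below the array median on every array, as did 4 of 8 fibroblast and 4 of 8 leukocyte markers. So did 3 of 9 smooth muscle and pericyte, 3 of 7 adipocyte and 2 of 5 neural and Schwann cell markers. Lying above it on all 6 arrays were 4 of 9 smooth muscle and pericyte, 3 of 8 leukocyte and 2 of 8 fibroblast markers. Such counts were 1 of 12 for endothelial, 0 of 7 for adipocyte and 1 of 5 for neural and Schwann cell markers. Myoblast and myocyte markers had a mean level of 7.54 to 8.77 on the control arrays and 9.01 to 9.68 on the activated arrays. For 5 of the 10, every activated array lay above every control array, against 5.40% of all genes. The markers with the smallest p were Des (1.56 ± 0.36, log2 difference ± SE), Myh3 (1.32 ± 0.33) and Cdh15 (1.03 ± 0.29). On the same list Pax7 was lower (-0.60 ± 0.31) and Myod1 differed by 0.16 ± 0.44. Of 9 measured cell cycle genes, 8 were lower on every activated array than on every control array, against 7.40% of all genes. The mean level of the 9 ran from 7.31 to 8.01 in control and from 5.37 to 6.63 in activated cultures. In bulk RNA, fewer cells of a type and less RNA per cell cannot be told apart.

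No Notch pathway gene passed an adjusted p of 0.05 between activated and control cultures, in limma without the replicate number (smallest adjusted p = 0.383, Hes7) or with the replicate number as a block (smallest adjusted p = 0.111, also Hes7). Over all genes, 0% passed without the block (0 of 23279 genes, with 1830 at an unadjusted p under 0.05) and 0.133% with it. At an unadjusted p under 0.05 in limma, Hes6 was higher and Hes7 lower in activated cultures, 2 of 31 or 6.45% against 7.86% of all genes (4.44% higher and 3.42% lower). With the block the count was 5 of 31 (Hes6, Hey1 and Numbl higher, Hes7 and Notch4 lower), or 16.1% against 16.6% of all genes (9.63% higher and 7.01% lower). Both shares were close to those of all genes, so neither sets the Notch genes apart. Of the 31 genes, 20 had a lower mean in activated cultures (64.5%, against 59.7% of all genes) and 11 a higher one (against 40.3%). The median log2 difference over the 31 was -0.21, against -0.08 over all genes. The 3 pairs of equally numbered arrays differed in the same direction for 13 of the 31 genes, or 41.9%, against 41.6% of all genes. In 3 genes (Notch4, Dlk1 and Hes7) every activated array lay below every control array, 9.68% against 7.40% of all genes, and in 0 of 31 did every activated array lie above, against 5.40%.

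**Figure D1:**
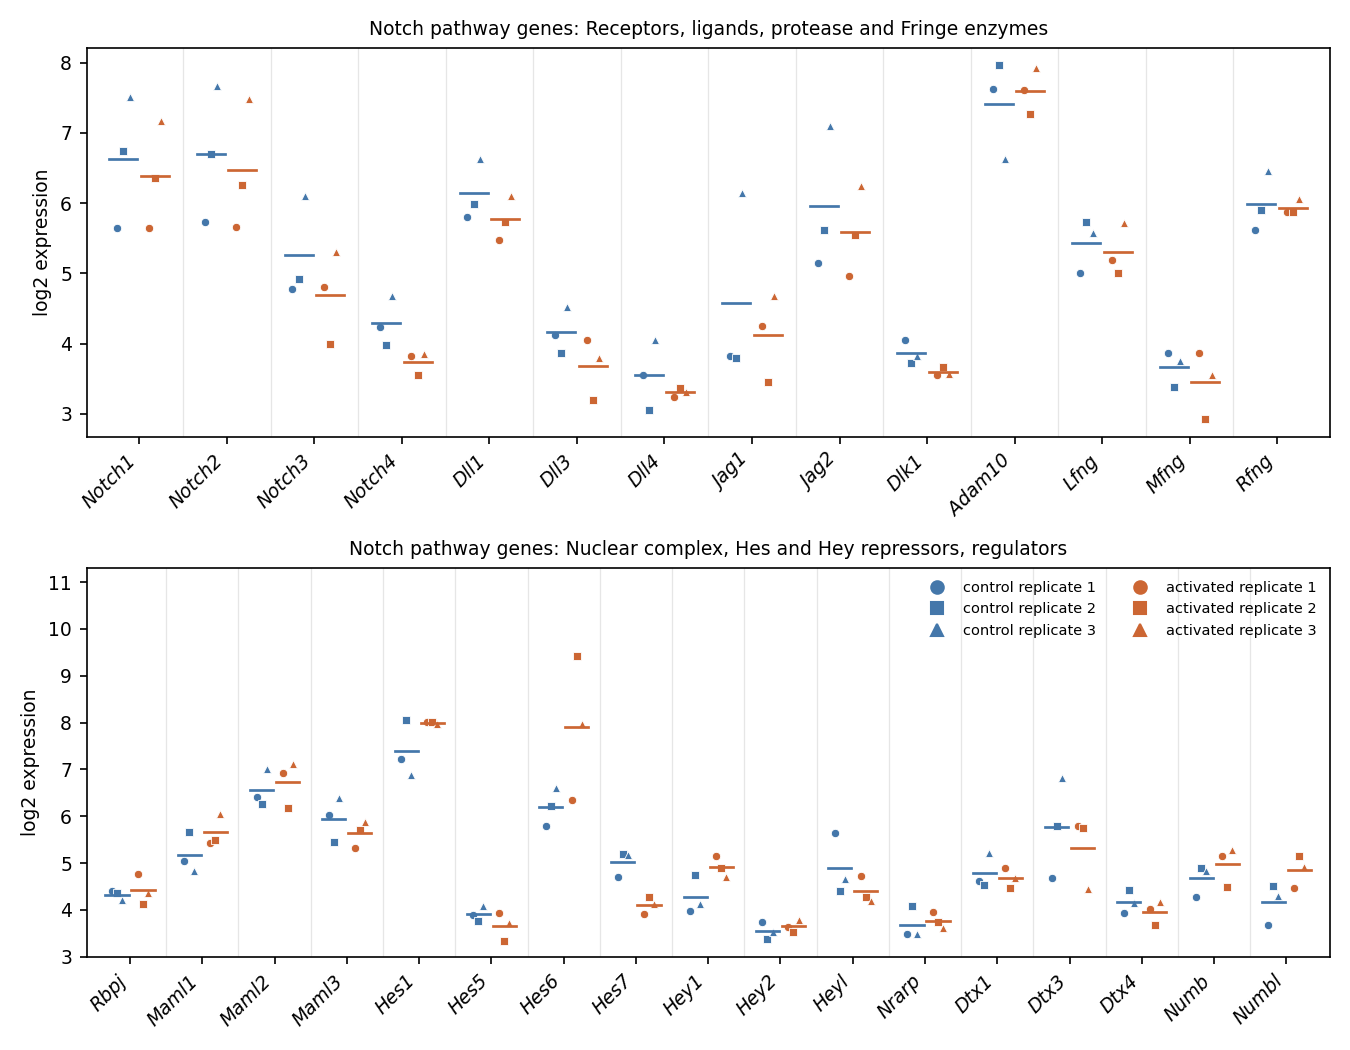
Log2 expression of the 31 Notch pathway genes on each array, with control cultures in blue, activated cultures in orange, a marker shape for each replicate number and a bar at each group mean. Levels of different genes are not comparable. Control replicate 3 is the highest control array for all 4 receptors and all 5 Delta and Jagged ligands, and activated replicate 2 stands at 9.43 for Hes6.

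The receptors, Notch1 to Notch4, bind ligand at the cell surface and carry the intracellular part that is released. All 4 had lower means in activated cultures, with log2 differences from -0.57 to -0.23, and none passed the test. Their means were also lower after each of the 3 other scalings, by as little as -0.105 for Notch2 after median centring. Notch1 (Entrez 18128) read 5.65, 6.74 and 7.51 on the log2 scale in control cultures (here and below in the order of replicates 1, 2 and 3), against 5.64, 6.36 and 7.16 in activated cultures. Notch2 (Entrez 18129) had a similar order, at 5.73, 6.70 and 7.67 in control and at 5.66, 6.26 and 7.49 in activated cultures. For both genes the arrays of a group lay much farther apart than the arrays sharing a number, and the groups overlapped. The spread within groups was at percentile 92.5 of all genes for Notch1 and 94.9 for Notch2. The differences, -0.25 ± 0.55 (SE) for Notch1 and -0.23 ± 0.60 for Notch2, had 95% intervals from -1.52 to 1.03 and from -1.64 to 1.18. With the replicate block the SE was 0.19 for each (limma, adjusted p = 0.556 and 0.574).

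Notch3 (Entrez 18131), a receptor also found in satellite cells and pericytes, was at 4.78, 4.92 and 6.10 in control and at 4.80, 3.99 and 5.30 in activated cultures. Its groups overlapped, and its difference of -0.57 ± 0.46 (SE) did not pass (limma, adjusted p = 0.757, and 0.336 with the replicate block). Smooth muscle and pericyte markers, listed because they could accompany Notch3, had mean levels of 5.20 to 5.35 in control and 5.18 to 5.40 in activated cultures, with 3 of 9 higher and 6 lower (6 higher and 3 lower after quantile normalization). The 3 with the smallest p were Rgs5 (-1.78 ± 0.55), Acta2 (1.09 ± 0.39) and Abcc9 (1.26 ± 0.57), with overlapping groups. Their part in the Notch3 difference was not tested.

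Notch4 (Entrez 18132), a receptor best known from endothelium, was at 4.24, 3.99 and 4.68 in control and at 3.83, 3.55 and 3.85 in activated cultures. The groups did not overlap. The difference was -0.56 ± 0.25 (SE), 1.47-fold lower in activated cultures (limma, adjusted p = 0.647, and 0.254 with the replicate block), and its 95% interval ran from -1.15 to 0.03. It was -0.37 without control replicate 3. Notch4 exceeded the array median on only 1 array, so it lay among the dimmer genes on most arrays. The 12 endothelial markers had a mean level of 3.21 to 3.50 in control and 2.99 to 3.24 in activated cultures, with 10 lower and 2 higher (9 and 3 after quantile normalization), and those with the smallest p were Esam (-0.37 ± 0.25), Egfl7 (-0.34 ± 0.23) and Vwf (-0.32 ± 0.22). Tek, the only one whose groups did not overlap, was named for that after its values were seen. Their part in the Notch4 difference was not tested.

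The Delta and Jagged ligands sit on the signal-sending cell, where Dll1, Dll4, Jag1 and Jag2 activate Notch and Dll3 acts mainly as an inhibitor within the cell. All 5 had lower means in activated cultures, with differences from -0.49 to -0.25, and the groups overlapped for each. Their means were also lower after each of the 3 other scalings, though Dll4 then differed by only -0.07 (quantile) and -0.05 (cyclic loess). Dll4 exceeded the array median on 0 arrays, Dll3 on 1 and Jag1 on 2, so these lay among the dimmer genes on most arrays. Dll1 (Entrez 13388), a ligand of myogenic cells, was at 5.81, 5.98 and 6.63 in control and at 5.48, 5.73 and 6.10 in activated cultures, a difference of -0.37 ± 0.30 (SE). Jag1 (Entrez 16449) was at 3.82, 3.79 and 6.15 in control and at 4.25, 3.46 and 4.68 in activated cultures, so that a single control array set its control mean. Jag2 (Entrez 16450) was at 5.15, 5.62 and 7.09 in control and at 4.97, 5.54 and 6.25 in activated cultures. Its difference was -0.37 ± 0.54 (SE), with a 95% interval from -1.64 to 0.91. Dll3 differed by -0.49 ± 0.30 and Dll4 by -0.25 ± 0.29. The adjusted p of the 5 ligands ran from 0.726 to 0.849 in limma.

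Control replicate 3 was the highest of the 3 control arrays for all 4 receptors and all 5 of these ligands. Among the 31 genes this held for 16 (51.6%), against 34.8% of all genes. Without that array, 2 of 4 receptors and 2 of 5 ligands were lower in activated cultures, in place of all 9. The difference then turned to 0.19 for Notch1, 0.25 for Notch2, 0.32 for Jag1, 0.20 for Jag2 and 0.01 for Dll4. It was -0.15 for Notch3 (from -0.57), -0.37 for Notch4 (from -0.56), -0.13 for Dll1 (from -0.37) and -0.31 for Dll3 (from -0.49). Leaving out this array alone keeps activated replicate 3, which was also the highest activated array for Notch1, Notch2, Jag1 and Jag2. Between equally numbered arrays 1 and 2, the differences were -0.01 and -0.38 for Notch1, -0.07 and -0.44 for Notch2 and -0.18 and -0.08 for Jag2, so these 3 genes kept 1 sign over the 3 pairs. Jag1 (0.43 and -0.33) and Dll4 (-0.31 and 0.32) did not. The median over the 31 genes turned from -0.21 to 0.04, with 17 higher and 14 lower. Without activated replicate 1 the differences of Notch1 and Notch2 were 0.13 and 0.17. Control replicate 3 also held the lowest control level of Myog (6.51), Mef2c (6.89) and Mymk (7.47), genes of muscle differentiation and fusion chosen after their values were seen. Of the other listed myoblast and myocyte markers, Des, Cdh15, Myh3, Chrna1 and Myf5 were also lowest there among the controls. Pax7 (8.00) was in the middle there and Myod1 (9.67) was highest.

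**Figure D2:**
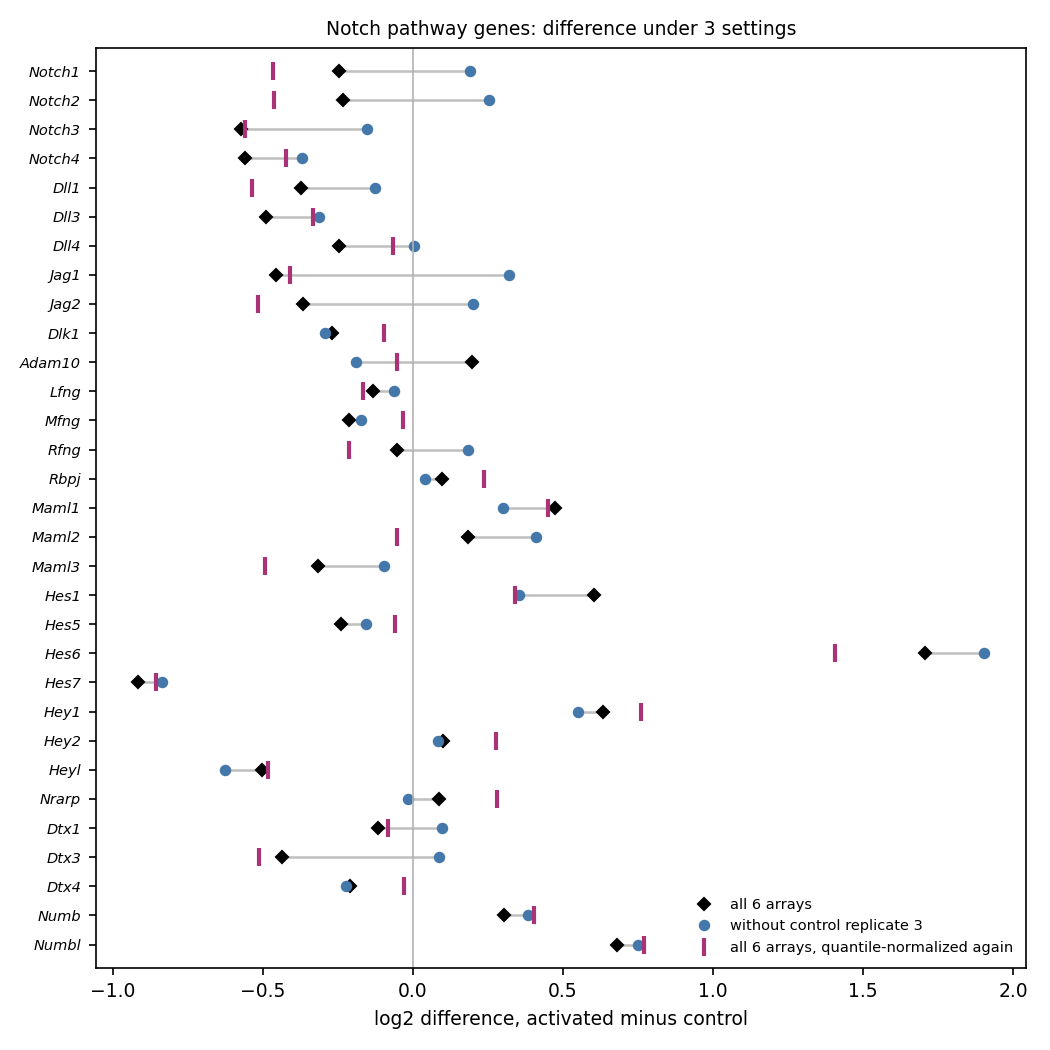
Log2 difference (activated minus control) of each Notch pathway gene with all 6 arrays (black diamonds), without control replicate 3 (blue circles) and after quantile normalization was repeated (purple ticks). Leaving out control replicate 3 moves Notch1, Notch2, Dll4, Jag1 and Jag2 to the right of 0, whereas Hes6 lies between 1.41 and 1.90 and Hes7 between -0.92 and -0.84 in all 3.

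Dlk1 (Entrez 13386), a membrane protein related to Delta that lacks the usual receptor-binding domain, was at 4.05, 3.73 and 3.83 in control and at 3.56, 3.66 and 3.57 in activated cultures. Every activated array lay below every control array, but by a small margin, and the difference of -0.27 ± 0.20 (SE) did not pass (limma, adjusted p = 0.754). Dlk1 lay below the array median on all 6 arrays, its groups overlapped after each of the 3 other scalings, and its difference was then -0.10 (quantile), -0.07 (cyclic loess) and -0.14 (median centring). Adam10 (Entrez 11487), the protease that makes the first cut in ligand-bound Notch, averaged 7.40 ± 0.69 (SD, n = 3) over the control arrays and 7.60 ± 0.33 over the activated ones. Its difference of 0.20 was -0.05 once quantile normalization was repeated, -0.12 with cyclic loess and -0.19 without control replicate 3. The Fringe enzymes add sugars to Notch that tune its response to Delta and Jagged. Lfng, Mfng and Rfng differed by -0.13, -0.21 and -0.05, each with an SE of 0.27 to 0.30. The sign of Rfng turned to 0.07 after median centring.

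Among the nuclear partners, Rbpj (Entrez 19664), which binds DNA for the pathway, averaged 4.33 ± 0.10 (SD, n = 3) over the control arrays and 4.42 ± 0.33 over the activated ones. The difference of 0.10 had a 95% interval from -0.47 to 0.66. The Mastermind co-activators Maml1, Maml2 and Maml3 differed by 0.47 ± 0.30, 0.18 ± 0.33 and -0.32 ± 0.30 (SE). For Maml2 it was -0.05 once quantile normalization was repeated and -0.03 with cyclic loess. None of the 4 passed the test (limma, adjusted p from 0.729 to 0.908).

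The Hes and Hey repressors are the best known targets of Notch and held 5 of the 8 differences of at least 0.5 log2 units among the 31 genes. They went both ways, with Hes1, Hes6, Hey1 and Hey2 higher and Hes5, Hes7 and Heyl lower in activated cultures, and these directions held in all 14 alternative settings in which each gene was measured. Among all genes 23.4% differed by at least 0.5.

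Hes6 (Entrez 55927) differs from its relatives in that it opposes Hes1 and promotes differentiation, and it is induced in differentiating muscle. It was at 5.80, 6.22 and 6.59 in control and at 6.34, 9.43 and 7.96 in activated cultures. Activated replicates 2 and 3 lay above every control array, while activated replicate 1 lay within the control range. The difference was 1.71 ± 0.70 (SE), or 3.27-fold, with a 95% interval from 0.06 to 3.36 (limma, adjusted p = 0.621, and 0.196 with the replicate block). Among all genes this difference was at percentile 99.2, and the spread within groups was at percentile 97.4. Without activated replicate 2 the difference was 0.95, and without activated replicate 1 it was 2.49. Myog, a transcription factor of muscle differentiation, was at 8.68, 8.85 and 6.51 in control and at 9.36, 11.34 and 10.01 in activated cultures. Activated replicate 2 was thus the highest array, activated replicate 3 the next and activated replicate 1 the lowest of its group for both genes. In control replicate 3 Hes6 and Myog parted, since it was the highest control array for Hes6 and the lowest for Myog. Myog was chosen after its values were seen. Des, Cdh15, Chrna1 and Mymk had the same order of activated arrays. Activated replicate 3 was the lowest of its group for Mef2c, Myh3 and Myf5, and the highest for Myod1 and Pax7.

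Hes7 (Entrez 84653), the oscillating repressor of the embryonic segmentation clock, was at 4.69, 5.19 and 5.18 in control and at 3.91, 4.29 and 4.12 in activated cultures. Every activated array lay below every control array, and the 3 numbered pairs differed by -0.78, -0.91 and -1.06. The difference of -0.92 ± 0.24 (SE), 1.89-fold lower in activated cultures, did not pass over all genes (limma, adjusted p = 0.383, and 0.111 with the replicate block). Its 95% interval, from -1.48 to -0.36, lay below 0. The groups did not overlap under any of the scalings or with any single array left out, and the difference stayed between -1.08 and -0.79. Of the cell cycle genes, 8 of 9 lay lower on every activated array than on every control array, against 7.40% of all genes. Among them were Cenpf (-1.94 ± 0.32), Ttk (-1.95 ± 0.33) and Top2a (-2.26 ± 0.50). The numbered pairs differed by -2.37, -2.10 and -1.37 for Cenpf, -1.57, -2.93 and -1.35 for Ttk, and -2.60, -3.47 and -0.71 for Top2a. These 3 genes thus fell least in the pair numbered 3, where Hes7 fell most. The part of the cell cycle genes in the Hes7 difference was not tested.

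**Figure D3:**
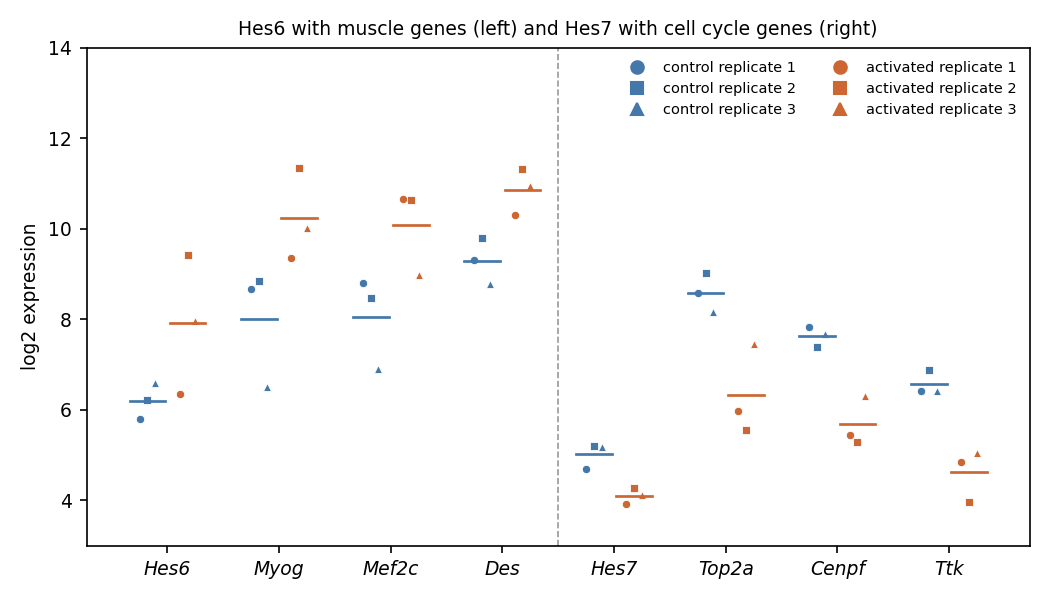
Log2 expression on each array of Hes6 beside the muscle genes Myog, Mef2c and Des, and of Hes7 beside the cell cycle genes Top2a, Cenpf and Ttk. Bars are group means, and levels of different genes are not comparable. Hes6 overlaps between groups through activated replicate 1 (6.34), while Hes7 and the 6 other genes do not overlap.

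Hes1 (Entrez 15205), a widely used readout of Notch, was at 7.22, 8.06 and 6.89 in control and at 8.01, 8.00 and 7.97 in activated cultures. The activated arrays lay close together (SD 0.02), and control replicate 2 lay above them all. The difference was 0.60 ± 0.32 (SE), or 1.52-fold (limma, adjusted p = 0.692, and 0.34 with the replicate block). It was 0.34 after quantile normalization, 0.27 after cyclic loess and 0.35 without control replicate 3. Hey1 (Entrez 15213), a Notch target that opposes myogenic factors, was at 3.99, 4.75 and 4.12 in control and at 5.16, 4.90 and 4.70 in activated cultures. Control replicate 2 lay just above activated replicate 3, so the groups overlapped. Hey1 exceeded the array median on 4 of 6 arrays. The difference of 0.63 ± 0.28 (SE), or 1.55-fold, had an adjusted p of 0.632 in limma and 0.293 with the replicate block, and lay between 0.49 and 0.86 with any single array left out. Heyl (Entrez 56198), a Notch target of satellite cells and vascular smooth muscle, was at 5.65, 4.40 and 4.65 in control and at 4.72, 4.27 and 4.20 in activated cultures. Its difference of -0.50 ± 0.36 (SE) rested largely on control replicate 1, since it was -0.13 without that array. Hes5 differed by -0.24 ± 0.24 and Hey2, a vascular and cardiac member, by 0.10 ± 0.21. Both were below the array median on all 6 arrays. For Hey2 every activated array lay above every control array once the arrays had been quantile-normalized again or adjusted by cyclic loess (differences of 0.28 and 0.30), where 6.36% and 6.53% of all genes did so.

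The sequences before the start sites are shown for Hes6 and Hes7, the genes with the largest differences in each direction. Also shown are Hes5, a classical Notch target with paired matches, and Maml1, both picked for their matches. Each is the 250 bases before a RefSeq start site (assembly GRCm38.p6), written 5′ to 3′ on the gene's strand, with motif matches in capitals.
Hes6, start A (chr1:91413223-91413472, reverse strand): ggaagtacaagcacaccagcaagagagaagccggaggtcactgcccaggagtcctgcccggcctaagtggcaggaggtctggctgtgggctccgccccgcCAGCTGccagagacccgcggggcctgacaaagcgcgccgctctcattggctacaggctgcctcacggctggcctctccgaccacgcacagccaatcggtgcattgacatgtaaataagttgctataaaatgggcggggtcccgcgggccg
Hes6, start B (chr1:91414039-91414288, reverse strand): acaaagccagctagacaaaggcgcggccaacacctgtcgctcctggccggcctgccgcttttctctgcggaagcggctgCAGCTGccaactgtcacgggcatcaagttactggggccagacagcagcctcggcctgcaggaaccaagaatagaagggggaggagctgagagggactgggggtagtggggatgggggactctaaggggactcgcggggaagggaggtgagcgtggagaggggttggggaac
Hes7 (chr11:69120203-69120452, forward strand): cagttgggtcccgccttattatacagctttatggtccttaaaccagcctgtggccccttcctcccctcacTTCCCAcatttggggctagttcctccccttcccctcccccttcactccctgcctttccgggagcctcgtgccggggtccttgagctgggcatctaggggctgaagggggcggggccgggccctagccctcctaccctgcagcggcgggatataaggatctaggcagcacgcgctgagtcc
Hes5 (chr4:154960673-154960922, forward strand): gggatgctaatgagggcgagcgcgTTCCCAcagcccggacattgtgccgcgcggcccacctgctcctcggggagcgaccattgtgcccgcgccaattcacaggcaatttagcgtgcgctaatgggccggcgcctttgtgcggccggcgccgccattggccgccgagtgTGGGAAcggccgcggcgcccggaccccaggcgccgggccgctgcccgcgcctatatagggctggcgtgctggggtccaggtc
Maml1 (chr11:50292337-50292586, reverse strand): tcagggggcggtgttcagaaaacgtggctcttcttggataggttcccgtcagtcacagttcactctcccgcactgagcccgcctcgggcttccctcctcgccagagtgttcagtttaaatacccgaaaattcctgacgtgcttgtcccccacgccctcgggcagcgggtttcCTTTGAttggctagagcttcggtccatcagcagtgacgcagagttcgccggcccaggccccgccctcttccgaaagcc

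Capitals mark TGGGAA, the core bound by Rbpj (TTCCCA on the other strand), CAGCTG, an E-box bound by myogenic factors (the same on both strands), and CTTTGA, a core bound by TCF/LEF factors (TCAAAG on the other strand). Of the 31 genes, 25 had a RefSeq window, and Hes1, Hey1, Heyl, Mfng, Dtx3 and Dtx4 did not. Some genes had several start sites, giving 31 windows, a few of which overlap. Both Hes6 windows held a CAGCTG, beginning 150 and 171 bases before the start site, and neither held a TGGGAA. The Hes7 window held 1 TGGGAA on the opposite strand, and the Hes5 window held 2, 1 on each strand. The only CTTTGA in the 31 windows was that of Maml1, 78 bases before the start site. TGGGAA occurred in 25.8% of the windows, against 21.6% of all 32851 windows of this length, CAGCTG in 22.6% against 13.0% and CTTTGA in 3.23% against 13.8%. A match describes letters in the window and does not show binding.

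The remaining members regulate the signal in the cytoplasm or feed back on it. Numbl (Entrez 18223), a relative of the Notch inhibitor Numb, was at 3.68, 4.51 and 4.30 in control and at 4.47, 5.16 and 4.92 in activated cultures. The groups overlapped through control replicate 2 and activated replicate 1, and the 3 numbered pairs differed by 0.79, 0.64 and 0.62. Numbl exceeded the array median on 4 of 6 arrays. The difference was 0.68 ± 0.30 (SE), or 1.60-fold (limma, adjusted p = 0.645, and 0.171 with the replicate block). Numb (Entrez 18222), which promotes the turnover of Notch, differed by 0.30 ± 0.30. Nrarp, a feedback inhibitor that Notch itself induces, averaged 3.68 ± 0.34 (SD, n = 3) over the control arrays and 3.77 ± 0.17 over the activated ones, below the array median on every array. The Deltex genes Dtx1, Dtx3 and Dtx4, of a family of ubiquitin ligases of the pathway, differed by -0.11, -0.44 and -0.21. Dtx3 was widely spread, at 4.69, 5.79 and 6.81 in control and at 5.79, 5.75 and 4.45 in activated cultures, and its difference was 0.09 without control replicate 3. Dtx1 turned to 0.01 after median centring.

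**Figure D4:**
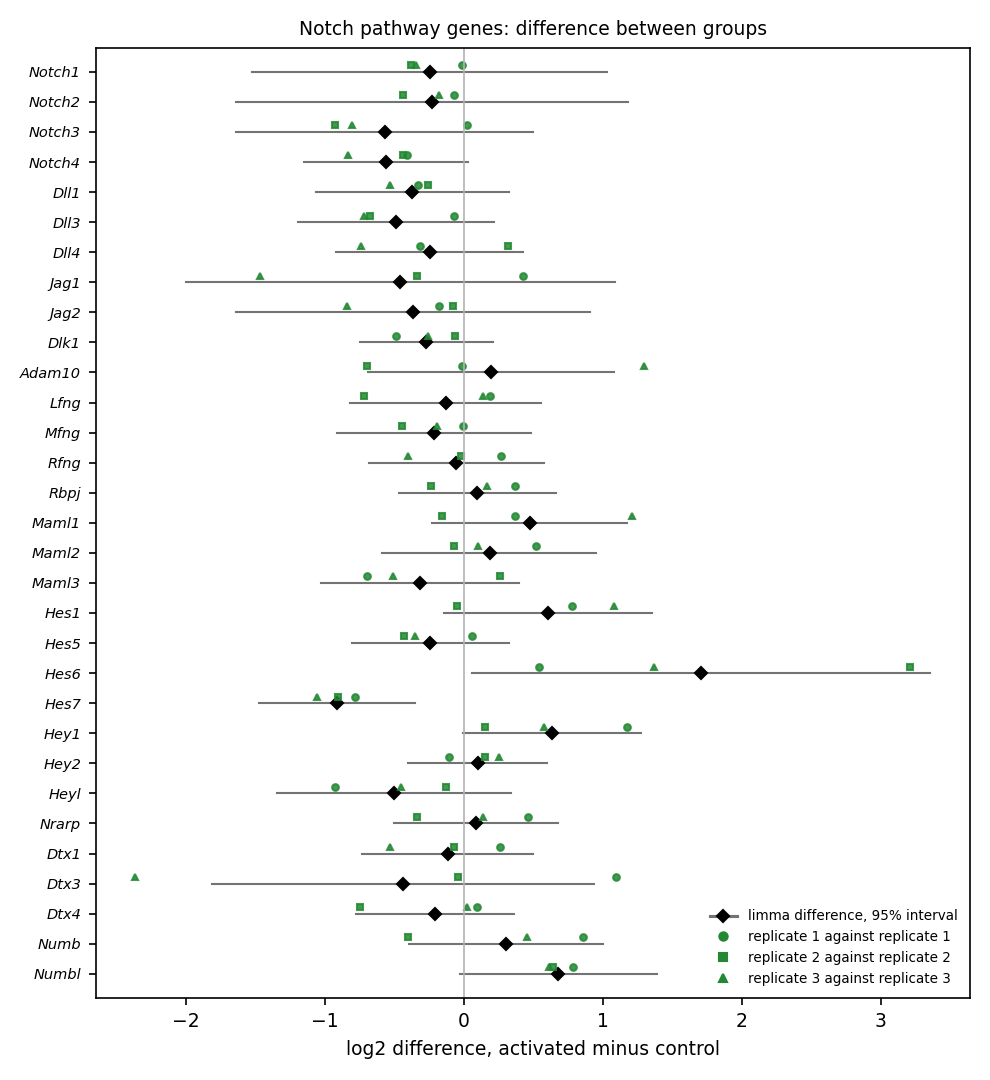
Log2 difference (activated minus control) of the 31 Notch pathway genes, with limma's estimate (black diamonds), its 95% interval (grey lines) and the differences between equally numbered arrays (green). In this fit, without the replicate block, the intervals of Hes6 and Hes7 lie to one side of 0, before adjustment for the 23279 genes tested. With the block, Hey1, Numbl and Notch4 also had an unadjusted p under 0.05 (limma). For Dtx3 the numbered pairs reach from -2.37 to 1.10.

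Of 39 further pathway genes, 36 were measured, and 22 had higher and 14 lower means in activated cultures. The median difference was 0.14 as deposited, 0.01 after quantile normalization (18 higher and 18 lower) and 0.26 after median centring (26 higher and 10 lower). None passed over all genes (limma, smallest adjusted p = 0.186, and 0.0539 with the replicate block). In 4 of the 36 every activated array lay above every control array, 11.1% against 5.40% of all genes, and in 0 every activated array lay below. After quantile normalization these counts were 3 and 1, where 6.36% of all genes lay above and 6.31% below.

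Neurl1a, a ubiquitin ligase of the Neuralized family that acts on Notch ligands, was at 5.81, 5.94 and 5.55 in control and at 7.36, 7.95 and 7.14 in activated cultures. The groups did not overlap, and the difference was 1.72 ± 0.27 (SE), or 3.29-fold (limma, adjusted p = 0.186, and 0.0539 with the replicate block). It lay between 1.48 and 1.89 with any array left out and was 1.51 after quantile normalization. The repressor Bhlhe40 is a relative of the Hes proteins that responds to many signals. It was at 5.89, 4.09 and 5.44 in control and at 7.13, 6.88 and 7.71 in activated cultures. The difference was 2.10 ± 0.48 (SE), with an adjusted p of 0.319 in limma and 0.0776 with the replicate block. Mib1, the ligase that makes Delta and Jagged ligands able to signal, was at 6.69, 6.80 and 7.02 in control and at 7.30, 7.40 and 7.78 in activated cultures. Its difference of 0.66 ± 0.23 (SE) was 0.38 after quantile normalization. Psen2, a catalytic subunit of the gamma-secretase that releases the intracellular part of Notch, differed by 0.60 ± 0.25. The 4 lower genes with the smallest p were the gamma-secretase subunit Aph1a (-0.38 ± 0.26), Neurl1b (-0.36 ± 0.26), the gamma-secretase subunit Aph1c (-0.26 ± 0.23) and Hes2 (-0.32 ± 0.30), all with overlapping groups. Psenen, another gamma-secretase subunit, was named after its values were seen, for its spread within groups (SD 1.90 in control and 1.44 in activated cultures). It was at 4.58, 8.37 and 6.29 in control and at 7.08, 9.87 and 7.87 in activated cultures, a difference of 1.86 ± 1.03 (SE; limma, adjusted p = 0.697, and 0.0669 with the replicate block). That difference was 0.94 without control replicate 1 and 2.84 without control replicate 2.

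**Figure D5:**
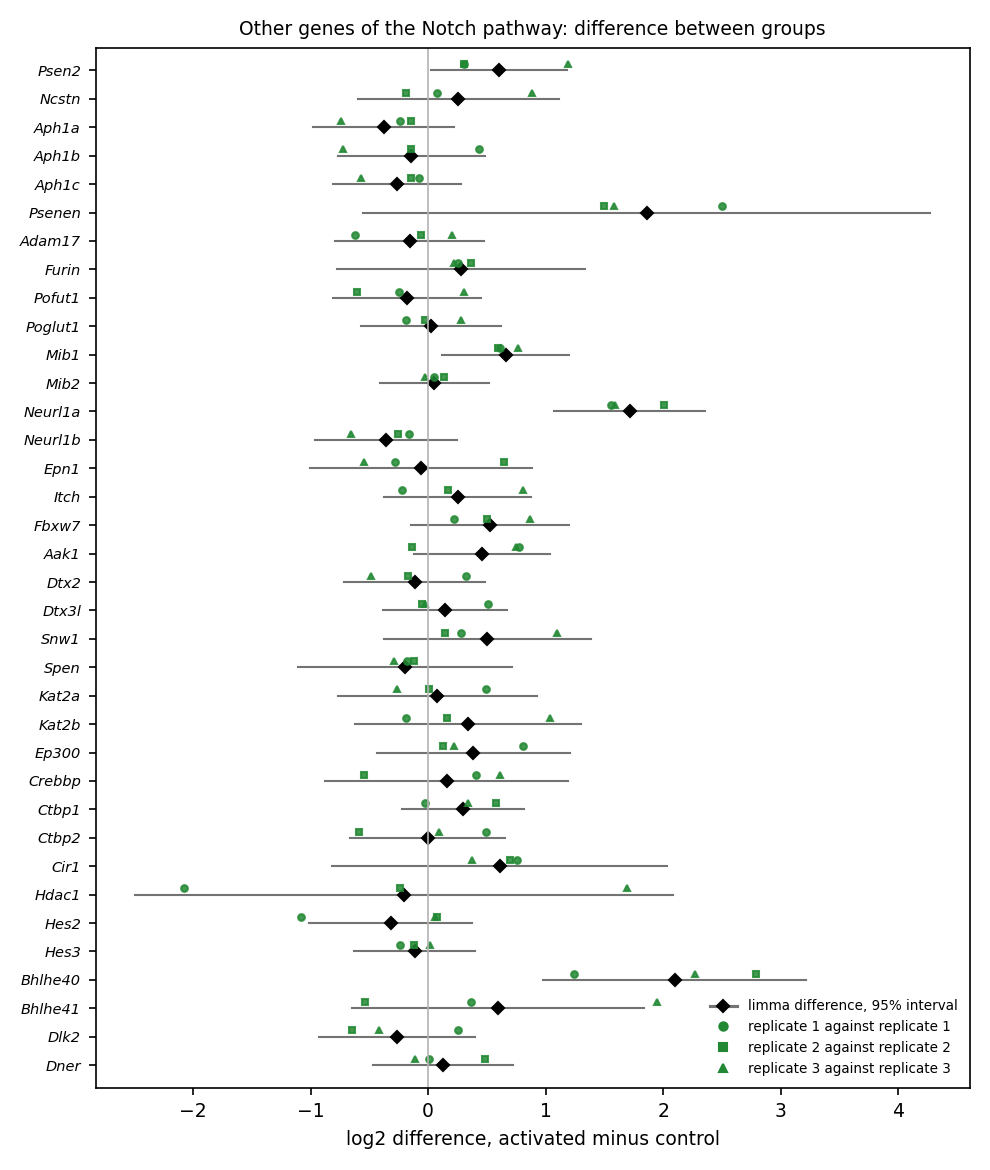
Log2 difference (activated minus control) of 36 further Notch pathway genes, drawn as for the 31 genes. Neurl1a, Bhlhe40, Mib1 and Psen2 have intervals to the right of 0 before adjustment, and Psenen has the widest interval.

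Genes that Notch and Rbpj are known to regulate in muscle stem cells showed small differences. The collagen genes Col5a1, Col5a3, Col6a1 and Col6a2 differed by -0.01, -0.04, -0.42 and 0.12, with overlapping groups. The calcitonin receptor gene Calcr, a marker of quiescent satellite cells, was at 3.70, 3.39 and 3.64 in control and at 3.37, 3.36 and 3.30 in activated cultures, so every activated array lay below every control array. It lay below the array median on all 6 arrays, and its difference of -0.24 ± 0.20 (SE) did not pass (limma, adjusted p = 0.766). Its groups overlapped after each of the 3 other scalings. Pax7 is the transcription factor that marks satellite cells, and its promoter drives the Cre here. It was at 7.77, 8.39 and 8.00 in control and at 7.28, 7.08 and 7.99 in activated cultures, with overlapping groups as deposited. Its difference of -0.60 ± 0.31 (SE) did not pass (limma, adjusted p = 0.688). For Pax7 the difference was -0.90 after quantile normalization, -0.94 after cyclic loess and -0.48 after median centring.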

How the data were processed

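Expression was measured in 6 mouse primary myoblast cultures, 3 control and 3 activated, from 100 ng of RNA labelled for whole-transcript arrays, per the labels. The authors deposited log2 expression values per probe set. The submitters' processing notes name RMA and Partek without saying what each did. The array design, the build and any detection calls were not given in the sources used here. Precision is limited by having 6 arrays. Of 24479 probe sets, 23281 had exactly 1 gene symbol in the platform annotation, and 2 symbols with several probe sets kept the one with the highest mean, leaving 23279 genes.

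limma 3.58.1 (R 4.3.3) fitted group alone to all genes, unfiltered, with two-sided moderated tests and Benjamini-Hochberg adjustment. It was also run on simulated data, with planted changes larger than any difference of the Notch genes. That run does not tell how well smaller changes are found. The members, the lists of other genes and the naming rule were chosen with earlier results of these data known. Values per array were given for members with non-overlapping groups, an unadjusted p under 0.05 in either fit or a difference of at least 0.5, and for some others chosen after their values were seen. Of the other pathway genes, the 4 higher and 4 lower with the smallest p were named, and of marker lists set beside a result, the 3 with the smallest p.

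Deviations from group means correlated across genes at 0.38, 0.49 and 0.45 for arrays numbered 1, 2 and 3 in their titles. All exceeded the criterion of 0.1, so the numbers count as pairing the arrays, although unequal spread of values within arrays can also produce such correlations. Printed SEs and intervals come from the fit without the block, which leaves this pairing out, unless the block is named. They can be wider than with the block, as for Notch1 (SE 0.55 without and 0.19 with it). For Dtx3 the SE was narrower without the block (0.59) than with it (0.63). Alternatives were the replicate block, repeated quantile normalization (also with the block), cyclic loess, median centring, dropping dim genes (not above the array median on at least 3 arrays), all probe sets, an intensity trend in the variance and each array left out.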

Additional observations from a re-analysis of the deposited data

How the results depend on the processing

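None of the 31 Notch genes passed an adjusted p of 0.05 in any of the 14 alternatives, and 17 of the 31 kept the sign of their difference in all of them. The count of genes past an adjusted p of 0.05, 0 with all arrays, was 31 with the replicate block and ran from 0 to 28 with an array left out, the 28 without activated replicate 3. At an unadjusted p under 0.05 there were 1830 genes, or 3875 with the replicate block, 3201 with quantile normalization and the block and 1180 without dim genes. With an array left out it ran from 907 (without activated replicate 2) to 3066 (without control replicate 2). Among genes named in the text, the replicate block changed the call at an adjusted p of 0.05 for Mef2c (limma, 0.465 without and 0.0479 with the block) and for no other, the Notch genes included. Median centring moved the median of all genes by 0.13 and, with it, the split of genes at an unadjusted p under 0.05 from 1034 higher and 796 lower to 1317 and 537.

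The median difference of the Notch genes lay between -0.26 and 0.04 with an array left out and turned positive only without control replicate 3. The count with every activated array above every control array was 1 after quantile normalization and after cyclic loess (6.36% and 6.53% of all genes). It ran from 1 to 5 with an array left out, where 7.47% to 12.2% of all genes lay above. The count below was 1 without dim genes, which leaves 21 of the 31 tested, against 6.13% of all genes kept. With an array left out it ran from 3 to 6, where 9.2% to 22.4% of all genes lay below. The largest counts, 5 above and 6 below, included those without control replicate 2, where the shares of all genes were also largest.

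Signs turned for Adam10 and Maml2 (-0.053 each after quantile normalization, with or without the block, and -0.116 and -0.032 after cyclic loess) and for Rfng and Dtx1 (0.074 and 0.012 after median centring). With an array left out, differences ran from -0.74 to 0.19 for Notch1, -0.74 to 0.25 for Notch2, -0.494 to 0.00536 for Dll4, -0.86 to 0.32 for Jag1, -0.77 to 0.20 for Jag2, -0.19 to 0.47 for Adam10 and -0.344 to 0.018 for Lfng. They ran from -0.423 to 0.046 for Mfng, -0.24 to 0.18 for Rfng, -0.078 to 0.248 for Rbpj, -0.000163 to 0.462 for Maml2, -0.015 to 0.288 for Nrarp, -0.24 to 0.10 for Dtx1 and -0.972 to 0.087 for Dtx3. Beyond the arrays left out, the cause was not tested. Members below the array median on every array may lie near background, which limits what their differences can show.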
